A study of Mus musculus with 6 samples.

Results

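Genes that move, store and sense iron were compared between mouse bone marrow progenitors with and without activity of a Hes1 reporter. The set held Tfrc, Tfr2, Steap3, Slc11a2, Fth1, Slc40a1, Ireb2, Aco1 and Hfe. All probe sets that GEO's platform annotation assigns to exactly 1 of these 9 genes were taken, together with the 3 Tfrc sets among the array's control sets, which gave 25 probe sets of 45040 tested. The 25 were all tested, with no filter on low values.

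The RNA came from marrow cells sorted as lineage negative, cKit+ and Sca1-, the surface phenotype of myeloerythroid progenitors, taken from male mice aged 6 weeks. Every mouse had the genotype Hes1 GFP/WT, so that GFP reports transcription from the Hes1 locus, a Notch target, and the cells of both groups carry 1 reporter allele. There were 3 Affymetrix arrays of GFP-positive cells and 3 of GFP-negative cells, each from 5 ng of total RNA. Whether arrays of a group came from different animals is not stated in the labels, so the p-values below are set against the scatter among these samples alone, which may be technical, and precision is limited by there being only 3 arrays a group.

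Most body iron travels bound to transferrin, and erythroid precursors take it up through the transferrin receptor Tfrc. In the acidified endosome the iron is released, reduced by the ferrireductase Steap3 and carried into the cytosol by the transporter Slc11a2. There it is used for heme and iron-sulfur clusters, stored in ferritin, whose heavy chain is Fth1, or exported by ferroportin, Slc40a1. The iron regulatory proteins, encoded by Aco1 and Ireb2, bind hairpins called iron-responsive elements in target mRNAs when iron is scarce, which stabilizes the Tfrc mRNA and holds back translation of the ferritin and ferroportin mRNAs. Tfr2 and Hfe take part in sensing iron-loaded transferrin, in liver for hepcidin control and, for Tfr2, also in erythroid cells together with the erythropoietin receptor.

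The 5 genes of iron uptake, transferrin sensing and export, Tfrc, Tfr2, Steap3, Slc11a2 and Slc40a1, were higher in GFP-positive cells in every one of their 17 probe sets, by log2 changes from 0.45 to 2.05. Hfe was 3.85-fold lower in 1 of its 2 probe sets. The ferritin heavy chain Fth1 and the iron regulatory protein genes Ireb2 and Aco1 were not called in any probe set. Of the 25 probe sets, 17 were called higher, 1 lower and 7 neither way (limma, Benjamini-Hochberg adjusted p under 0.05), whereas 6.36% of all probe sets were called higher and 7.67% lower. Among all probe sets brighter than the median, where 22 of the 25 lie, 10.0% were called higher. The median log2 change was 1.19 over the 25 probe sets and 0.089 over all probe sets. Groups did not overlap in 21 of the 25, against 38.5% of all probe sets, and the GFP-positive arrays were above in 20 of them, against 24.3%. With each array's median subtracted, 18 of the 25 iron probe sets were called higher, against 5249 of all 45040 probe sets. Of all calls, 61.7% were then higher in place of 45.3%. With 1 probe set per gene, the brightest, 5 of the 9 genes were higher and 1 was lower, against 8.15% and 9.92% of 18193 genes (18.1% in both directions).

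**Figure D1:**
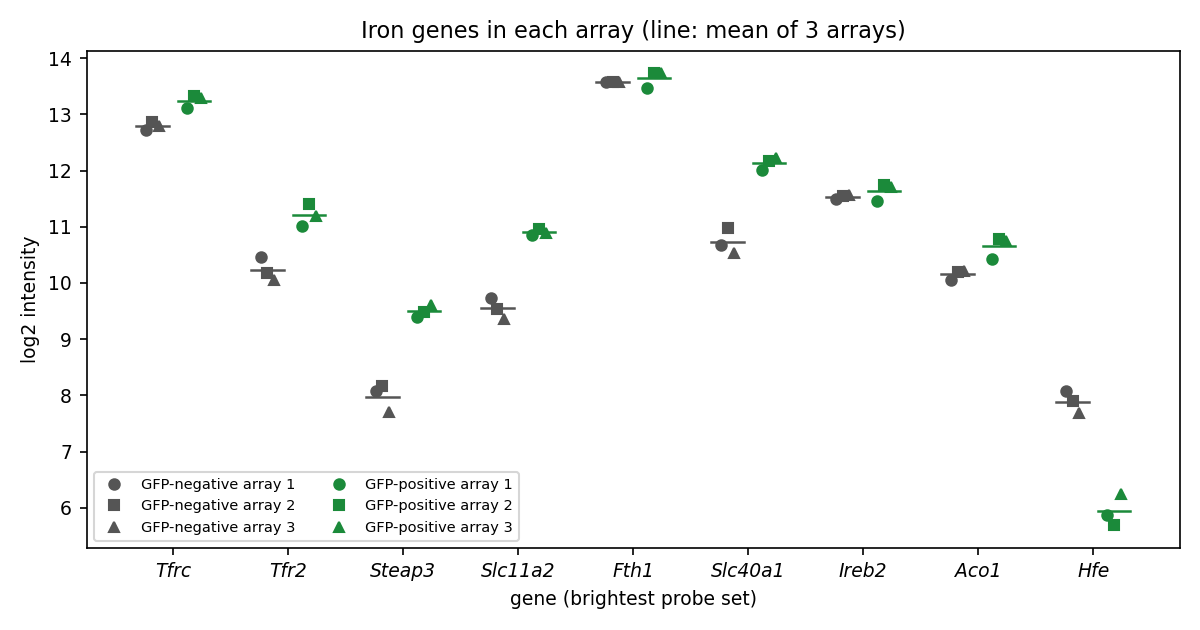
Log2 intensity of the brightest probe set of each of the 9 genes (horizontal axis) in the 3 GFP-negative (grey) and 3 GFP-positive (green) arrays, with a line at each group's mean and a symbol shape per array number. The groups separate upwards for Tfrc, Tfr2, Steap3, Slc11a2, Slc40a1 and Aco1 and downwards for Hfe, and overlap for Fth1 and Ireb2; levels of different genes are not comparable.

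Facts of the whole array set bear on these values. Over all probe sets, pairs of arrays correlated at r = 0.989 to 0.993 within a group and at 0.973 to 0.979 between the groups. Hes1 itself was 2.40-fold higher in GFP-positive arrays (limma adjusted p = 0.00140), a check of the labels since the cells were sorted on its reporter. Kit, on which all cells were sorted, had a log2 intensity of 11.42 ± 0.11 in the GFP-negative group and 11.17 ± 0.06 in the GFP-positive group (SD, n = 3 each; adjusted p = 0.138). Every GFP-positive array lay below every GFP-negative array for Kit, as in 14.2% of all probe sets. Its unadjusted limma p was under 0.05. In GFP-negative array 3 and GFP-positive array 1 the antibody joining chain gene Jchain, a plasma cell marker, read 8.85 and 8.65, against 3.64 to 4.08 in the other 4 arrays. The plasma cell marker Mzb1 did not follow, at 5.64 and 6.58 in these 2 arrays. It read 5.98 and 5.36 in the other GFP-negative arrays and 6.09 and 7.07 in the other GFP-positive arrays. Ighm, Cd79a and Cd79b were not highest in GFP-negative array 3 either. Calls and counts that change without these 2 arrays are given beside the results below. With them left out, 14 of the 25 probe sets were called higher and 1 lower, against 687 and 1655 of all 45040 probe sets.

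Lineage markers moved with the groups. All 5 listed markers of erythroid progenitors (Klf1, Epor, Gata1, Gfi1b and Car1) were called higher in GFP-positive arrays, with summed log2 signals of 14.13 to 14.20 in the GFP-negative group and 14.83 to 14.93 in the GFP-positive group. Of these calls, that of Car1 was lost whichever array was left out (adjusted p from 0.0532 to 0.0966). All 7 measured markers of granulocyte-monocyte progenitors and all 4 of stem and multipotent cells were called lower, with summed signals of 15.72 to 15.81 against 14.61 to 14.92 and of 12.85 to 13.10 against 11.04 to 11.52. The Mpo call was lost without GFP-negative array 2 (adjusted p = 0.0537) or array 3 (adjusted p = 0.0506). Without both arrays with Jchain signal, the calls of Car1, Mpo and Csf1r were lost (adjusted p = 0.138, 0.0945 and 0.0624). Of 3 measured erythroblast markers only Epb42 was called, higher by 3.31-fold (adjusted p = 0.0149). The anion exchanger gene Slc4a1 was bright, at 11.76 ± 0.11 and 11.97 ± 0.16 (adjusted p = 0.259). The only set used for the alpha globin gene Hba-a1 was dim, at 3.83 ± 0.08 and 4.07 ± 0.17 (adjusted p = 0.203). Probe sets annotated to several genes were not used, so this set does not give the level of all alpha globin mRNA. In bulk RNA, fewer cells of a type and less RNA per cell cannot be told apart, and the part of cell composition in the iron gene changes was not tested.

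RefSeq promoter windows were matched for 7 of the 9 genes, all but Slc11a2 and Slc40a1. Windows are shown for Tfrc, Steap3 and Tfr2, the 3 genes with a match to the letters below. Being chosen by their matches, they cannot show whether motifs go with the rise. Each runs over the 250 bases before a gene's most upstream annotated start, on build GRCm38.p6, 5′ to 3′ on the gene's strand. The capitals mark matches, on either strand, to AGATAA for the GATA family, to CCNCACCC for Kruppel-like factors and to ACGTGC for hypoxia-inducible factors.
Tfrc, chr16:32608646-32608895, plus strand: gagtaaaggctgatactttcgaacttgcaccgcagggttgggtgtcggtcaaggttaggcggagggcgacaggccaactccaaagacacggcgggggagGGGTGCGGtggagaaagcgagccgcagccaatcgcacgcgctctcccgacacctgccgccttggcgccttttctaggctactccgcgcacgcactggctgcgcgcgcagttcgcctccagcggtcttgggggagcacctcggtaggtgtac
Steap3, chr1:120271081-120271330, minus strand: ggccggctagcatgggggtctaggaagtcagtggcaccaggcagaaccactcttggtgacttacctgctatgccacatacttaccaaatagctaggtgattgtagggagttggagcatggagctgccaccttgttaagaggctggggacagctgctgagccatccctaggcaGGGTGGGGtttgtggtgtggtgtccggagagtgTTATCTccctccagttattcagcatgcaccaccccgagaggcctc
Tfr2, chr5:137569590-137569839, plus strand: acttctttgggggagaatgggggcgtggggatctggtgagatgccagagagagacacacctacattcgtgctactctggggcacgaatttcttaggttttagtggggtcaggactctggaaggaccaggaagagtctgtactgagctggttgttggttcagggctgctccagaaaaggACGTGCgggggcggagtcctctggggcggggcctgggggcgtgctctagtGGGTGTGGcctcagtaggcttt

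The Tfrc window holds a Kruppel-like match on the reverse strand, GGGTGCGG, from base 151 to base 144 before the start. The Steap3 window holds a GATA match, TTATCT on the reverse strand, from base 45 to base 40, and a Kruppel-like match, GGGTGGGG, from base 78 to base 71. The Tfr2 window holds ACGTGC from base 72 to base 67 and GGGTGTGG from base 22 to base 15. Over all 14 windows of the 7 genes, which include alternative starts and partly overlap, 1 held the GATA letters, 5 the Kruppel-like letters, 2 the hypoxia letters and 0 the letters TTCNNNGAA of STAT5 factors. Of 32851 windows of the same length in the table, 9.99%, 14.9%, 4.92% and 7.02% held them. The windows of Aco1, Fth1, Hfe and Ireb2 held no match. The searched letters of the 4 motifs overlapped nowhere in these windows. A match describes these letters and is not a measured binding site.

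Tfrc, the receptor that brings transferrin-bound iron into the cell, was higher in all 6 of its probe sets. In its brightest set, 1452661_at, the GFP-negative arrays read 12.73, 12.86 and 12.79 and the GFP-positive arrays 13.12, 13.33 and 13.29 (log2 intensity). The groups did not overlap, and the rise was 1.37-fold (log2 change 0.45, standard error 0.10; limma adjusted p = 0.0314). This call was lost without any 1 array other than GFP-positive array 1 (adjusted p from 0.0762 to 0.101) and without both arrays with Jchain signal (adjusted p = 0.102). Set 1422966_a_at read 10.72, 10.76 and 10.73 against 11.66, 12.02 and 11.86, a 2.16-fold rise (adjusted p = 0.00256). Set 1422967_a_at read 8.56, 8.20 and 8.24 against 9.87, 10.10 and 9.92, a 3.11-fold rise (adjusted p = 0.00140). Every GFP-positive array lay above every GFP-negative array in both sets, and both calls were kept whichever array was left out.

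The 3 control sets lie towards the 5′ end, the middle and the 3′ end of the Tfrc transcript. The 3′ set read 10.39, 10.47 and 10.51 in the GFP-negative group and 11.58, 11.73 and 11.62 in the GFP-positive group, a 2.27-fold rise (adjusted p = 0.00124). The middle set read 7.95, 7.95 and 7.84 against 9.24, 9.63 and 9.63, a 3.00-fold rise (adjusted p = 0.00147). The 5′ set read 7.53, 7.03 and 6.45 against 8.82, 9.32 and 9.01, a 4.14-fold rise (adjusted p = 0.00653). The GFP-negative arrays were more spread at the 5′ set, with GFP-negative array 3 lowest, and the groups stayed apart at each position.

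The size of the Tfrc change thus depended on the probe set, from a log2 change of 0.45 (95% interval 0.21 to 0.69) to 2.05 (1.37 to 2.73), and these intervals do not overlap. The smallest change came from the set at percentile 98.7 of brightness among all probe sets and the largest from the set at percentile 68.0. The 3′ minus 5′ difference of the control sets was 2.87, 3.44 and 4.06 in GFP-negative arrays and 2.75, 2.41 and 2.61 in GFP-positive arrays. Its group means were 3.46 ± 0.60 and 2.59 ± 0.17 (SD, n = 3 each), and the groups did not overlap (exact permutation test, two-sided, p = 0.1, the smallest that 3 against 3 arrays allow). The same difference was 0.58 ± 0.05 and 0.63 ± 0.06 for beta-actin (exact permutation p = 0.3) and 0.61 ± 0.01 and 0.62 ± 0.01 for Gapdh (exact permutation p = 0.5). The part of RNA quality or of brightness in the unequal Tfrc changes was not tested.

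**Figure D2:**
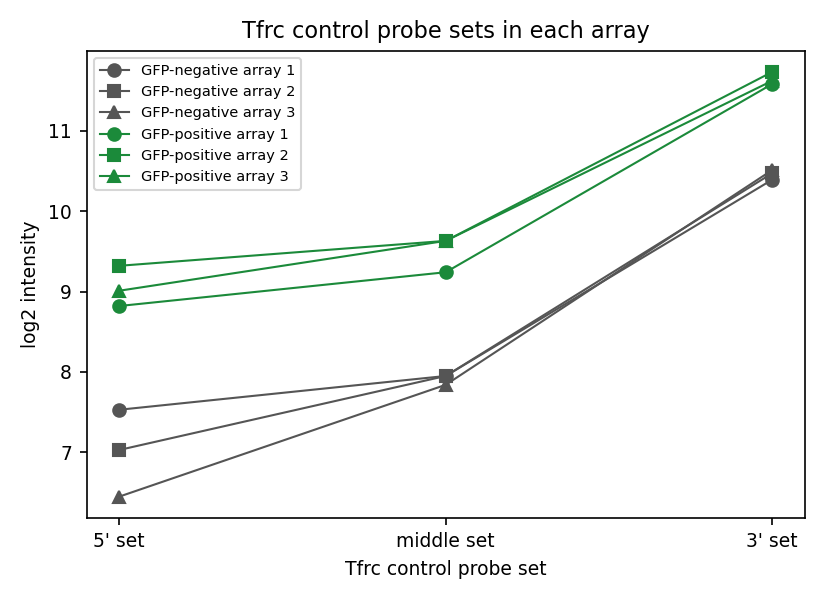
Log2 intensity of the 5′, middle and 3′ control probe sets of Tfrc (horizontal axis), 1 line per array, GFP-negative in grey and GFP-positive in green. All GFP-positive arrays lie above all GFP-negative arrays at each set, and the gap between group means is 2.05 at the 5′ set and 1.19 at the 3′ set.

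Tfr2, the second transferrin receptor, was higher in both of its probe sets by nearly equal amounts. Set 1459994_x_at read 10.46, 10.17 and 10.05 in the GFP-negative group and 11.02, 11.41 and 11.20 in the GFP-positive group, a 1.97-fold rise (adjusted p = 0.0103). Set 1425381_a_at read 10.18, 10.00 and 9.93 against 11.16, 11.05 and 10.95, a 2.02-fold rise (log2 change 1.01, standard error 0.11; adjusted p = 0.00297). The groups did not overlap in either set. Without both arrays with Jchain signal, the adjusted p of 1459994_x_at was 0.0555. The suffix x marks a set whose probes may also match other transcripts. Epor, which encodes the receptor that Tfr2 is known to associate with in erythroid cells, was 3.26-fold higher (adjusted p = 0.00118).

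Steap3, the endosomal ferrireductase of erythroid precursors, was higher in all 3 of its probe sets. The brightest, 1423468_at, read 8.08, 8.16 and 7.70 in the GFP-negative group and 9.40, 9.48 and 9.61 in the GFP-positive group. The arrays of a group lay close together and the groups were well apart, with a 2.87-fold rise (log2 change 1.52, standard error 0.15; adjusted p = 0.00203). Sets 1453498_x_at and 1430355_a_at rose 2.58-fold and 3.34-fold (adjusted p = 0.00333 and 0.00412), and their groups did not overlap.

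Slc11a2, the divalent metal transporter that moves iron out of the endosome, was higher in all 4 of its probe sets. The brightest, 1452078_a_at, read 9.74, 9.54 and 9.36 against 10.85, 10.96 and 10.89, a 2.55-fold rise (log2 change 1.35, standard error 0.12; adjusted p = 0.00170). Sets 1417584_at and 1426441_at rose 2.29-fold and 2.62-fold (adjusted p = 0.00165 and 0.00285). The dimmest, 1441709_at, read 4.97, 4.30 and 5.05 against 6.03, 6.38 and 5.54, so that the groups were apart but each was spread. Its 2.31-fold rise (adjusted p = 0.0379) was lost without any 1 array other than GFP-positive array 3 (adjusted p from 0.0679 to 0.0985) and without both arrays with Jchain signal (adjusted p = 0.146). Slc11a2 mRNA exists with and without an iron-responsive element, and the annotation does not say which form each probe set reads.

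Slc40a1, or ferroportin, the iron exporter, was higher together with the uptake genes. Set 1417061_at read 10.68, 10.98 and 10.54 in the GFP-negative group and 12.01, 12.17 and 12.23 in the GFP-positive group, a 2.65-fold rise (log2 change 1.40, standard error 0.14; adjusted p = 0.00230). Set 1448566_at read 7.23, 7.37 and 7.07 against 8.90, 9.24 and 8.84, a 3.41-fold rise (adjusted p = 0.00138). The lowest GFP-positive array exceeded the highest GFP-negative array in both. Macrophages are a known source of this transcript. Of 11 macrophage markers, 2 were higher (Vcam1 and Siglec1) and 1 lower (Cd163), with summed log2 signals of 9.73 to 10.06 in the GFP-negative group and 10.07 to 10.56 in the GFP-positive group. Over all genes, 8.15% were called higher and 9.92% lower. The Siglec1 call was lost without any 1 array (adjusted p from 0.0764 to 0.108), the Vcam1 call without any 1 GFP-negative array (up to 0.0779), and the Cd163 call without any 1 array other than GFP-positive array 2 (up to 0.0765). Without both arrays with Jchain signal none of these 3 was called (adjusted p = 0.183, 0.117 and 0.146 in the same order). At an unadjusted limma p under 0.05, 6 of the 11 were higher and 2 lower, and the median log2 change was 0.47. Markers that did not pass the adjusted test lay in both directions, among them the mannose receptor gene Mrc1 at 5.43 ± 0.95 and 7.26 ± 0.76 (adjusted p = 0.0813), C1qb at 7.11 ± 0.38 and 7.89 ± 0.36 (adjusted p = 0.0922) and Adgre1 at 6.14 ± 0.34 and 5.68 ± 0.31 (adjusted p = 0.215). The part of macrophages in the Slc40a1 rise was not tested.

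Fth1, the ferritin heavy chain that oxidizes and stores iron, showed no called change. Set 1448771_a_at read 13.58 in each of the 3 GFP-negative arrays and 13.47, 13.73 and 13.73 in GFP-positive arrays. The groups overlapped, because GFP-positive array 1 lay lowest and the other two highest. The log2 change was 0.066 with a 95% interval from -0.19 to 0.32 (adjusted p = 0.699). Set 1427021_s_at read 13.05, 13.01 and 13.00 against 13.10, 13.22 and 13.24, a log2 change of 0.17 with an interval from -0.045 to 0.38 (adjusted p = 0.247). Both sets lay at or above percentile 98.9 of brightness. Fth1 also has processed pseudogenes, and the suffix s marks probes that may match more than a single gene.

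Of the iron regulatory proteins, Ireb2, which is controlled mainly by its degradation when iron is plentiful, read 11.49, 11.55 and 11.56 in the GFP-negative group and 11.45, 11.74 and 11.70 in the GFP-positive group. The groups overlapped, and the log2 change was 0.10 with an interval from -0.16 to 0.36 (adjusted p = 0.576). Aco1, which switches between a cytosolic aconitase and an RNA-binding form, lay just outside the threshold in its brightest set. Set 1423644_at read 10.06, 10.20 and 10.22 against 10.42, 10.79 and 10.74, a log2 change of 0.49 with an interval from 0.18 to 0.80 (adjusted p = 0.0521). Set 1456728_x_at read 9.55, 9.94 and 9.83 against 9.98, 10.59 and 10.56 (log2 change 0.60; adjusted p = 0.0953). In both sets every GFP-positive array lay above every GFP-negative array, and GFP-positive array 1 was the lowest of its group. Without GFP-positive array 1 the adjusted p was 0.0247 and 0.0283. The dim set 1447080_at lay at 4.97 ± 0.11 and 5.01 ± 0.05 (adjusted p = 0.806).

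Hfe, an MHC class I-like protein that binds the transferrin receptor and is mutated in hereditary hemochromatosis, changed in the opposite direction. Set 1422645_at read 8.07, 7.90 and 7.68 in the GFP-negative group and 5.87, 5.69 and 6.25 in the GFP-positive group. The groups lay far apart, with a 3.85-fold lower signal in GFP-positive cells (log2 change -1.95, standard error 0.18; adjusted p = 0.00179), and the call was kept whichever array was left out (adjusted p from 0.00476 to 0.0108). The second set, 1450702_at, read 5.79, 6.28 and 6.64 against 5.30, 4.68 and 6.78. Its groups overlapped because GFP-positive array 3 was the highest of all 6, and it was not called (log2 change -0.65, interval from -1.94 to 0.65; adjusted p = 0.446). B2m, the light chain that Hfe needs to reach the cell surface, lay at 13.71 ± 0.06 and 13.61 ± 0.10 (adjusted p = 0.516).

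Hfe had the largest change among the brightest probe sets of the 9 genes, and the genes whose values ran most alike over the 6 arrays were sought among 9095 other genes above median brightness. They were Ap1s2 (Pearson r = 0.999), Tespa1 (0.998), Commd7 (0.998), Tbc1d23 (0.997) and Sash3 (0.996). These genes were lower in GFP-positive cells by log2 changes of -1.98, -2.28, -0.36, -0.88 and -1.06. The correlations describe 6 arrays in 2 groups and mostly reflect the group difference.

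**Figure D3:**
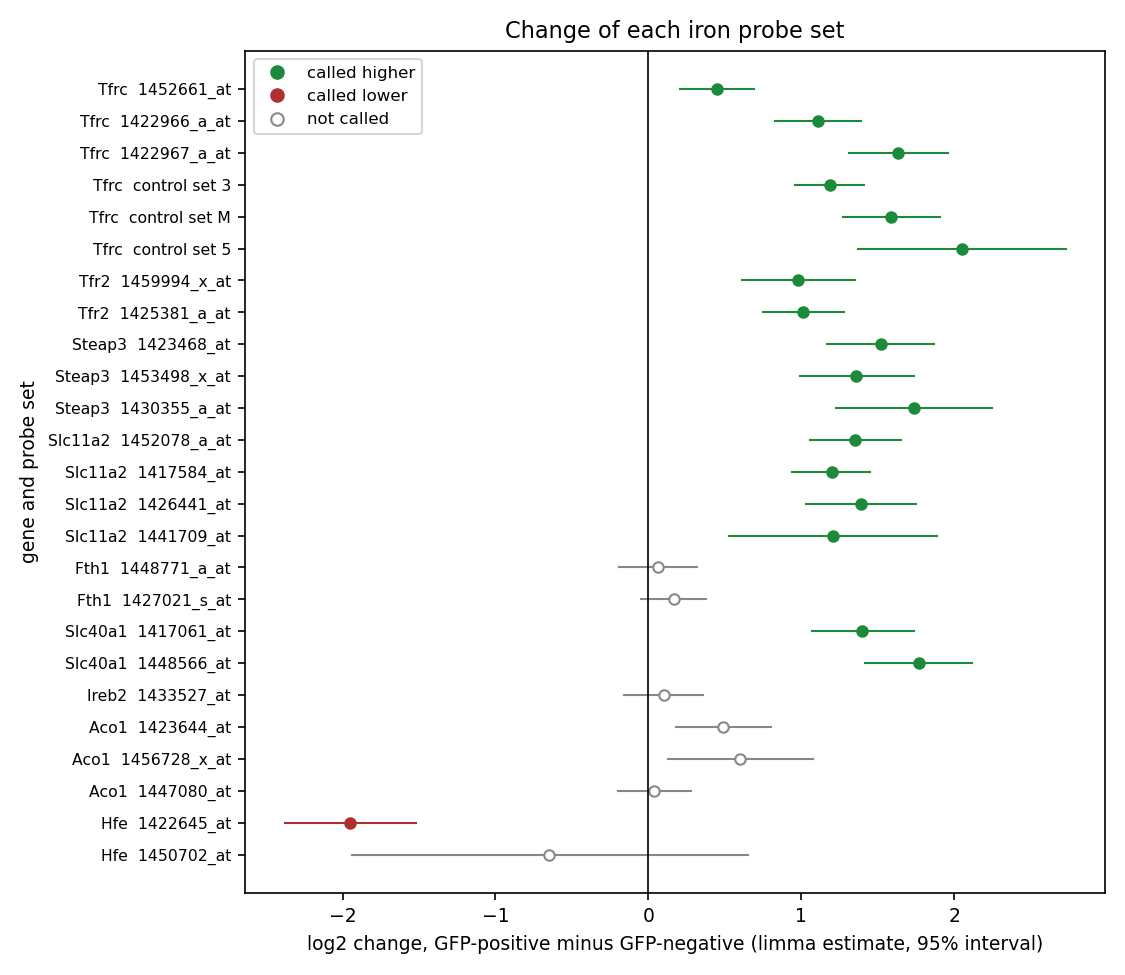
Log2 change (GFP-positive minus GFP-negative, horizontal axis) of each of the 25 probe sets with its 95% interval from limma, green where called higher, red where called lower and open grey where not called. The 17 sets of Tfrc, Tfr2, Steap3, Slc11a2 and Slc40a1 lie between 0.45 and 2.05, those of Fth1, Ireb2 and Aco1 between 0.04 and 0.60, and those of Hfe at -1.95 and -0.65.

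Not all of the mRNAs known to carry an iron-responsive element were called. Of 6 measured, 4 of which belong to the set above, 3 were higher (Slc40a1, Slc11a2 and Tfrc) and 0 lower by limma, with 3 and 0 at an unadjusted p under 0.05. The median log2 change was 0.31, against 0.11 over all genes, of which 8.15% were called higher and 9.92% lower. Fth1 and Slc40a1 are both known for mRNAs with the element at the 5′ end, and had log2 changes of 0.066 and 1.40. Whether their probe sets read mRNA forms with the element was not tested. Alas2, the erythroid enzyme that opens heme synthesis, also with a 5′ element, lay at 10.35 ± 0.19 and 10.24 ± 0.09 (adjusted p = 0.565), and the hypoxia factor Epas1 at 4.61 ± 0.10 and 4.77 ± 0.21 (adjusted p = 0.425). Fth1 and Epas1 lay at percentiles 99.5 and 33.3 of brightness. The part of brightness in their small changes was not tested.

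Partner genes of iron handling were read from related lists. Of 46 measured partner genes, 9 were higher, 5 lower and 32 not called, with a median log2 change of 0.12. The background over genes was 8.15% called higher and 9.92% lower. Of the 9 higher genes, 4 kept the call whichever array was left out (Slc39a8, Abcb10, Glrx5 and Blvrb), and of the 5 lower genes, 0 did. The count of higher genes fell to 4 when GFP-positive array 2 was dropped and to 5 when GFP-negative array 2 or 3 was. The count of lower genes was 2 when GFP-positive array 1 was dropped, 0 for GFP-negative array 2 and 1 for any other array, and with all arrays 16 partner genes were higher and 5 lower at an unadjusted limma p under 0.05. Without both arrays with Jchain signal, 2 were called higher (Slc39a8 and Blvrb) and 0 lower, with 11 higher and 5 lower at an unadjusted p under 0.05.

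Genes of mitochondrial iron import and iron-sulfur cluster assembly held most of the higher calls, 6 of 10 with 1 lower and a median log2 change of 0.42. Glrx5, a glutaredoxin of cluster assembly, rose 1.70-fold (11.17 ± 0.09 to 11.93 ± 0.04 in log2 intensity, SD, n = 3 each; adjusted p = 0.00407). Abcb10, a mitochondrial transporter that stabilizes the iron importer mitoferrin, rose 1.63-fold (adjusted p = 0.00685). Without both arrays with Jchain signal their adjusted p was 0.0528 and 0.0624. Isca2 rose 1.50-fold, a call lost without GFP-negative array 3 or GFP-positive array 2 (adjusted p = 0.0669 and 0.0607). Nfs1, the cysteine desulfurase, rose 1.41-fold, a call that held with GFP-positive array 1 dropped and was lost on dropping any other (up to 0.103). Named after their values were seen, the mitoferrins Slc25a37 and Slc25a28 had log2 changes of 0.14 and -0.18 (adjusted p = 0.516 and 0.438), and the cochaperone gene Hscb was the 1 called lower (log2 change -0.44; adjusted p = 0.0339), which likewise held only on dropping that array (up to 0.101).

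Among 9 other genes of uptake and the endosomal cycle, 1 rose and 1 fell. Slc39a8, a metal importer, was 2.16-fold higher (10.48 ± 0.14 to 11.59 ± 0.17; adjusted p = 0.00360), in 1 of its 2 probe sets. Its relative Slc39a14 was 1.79-fold lower (adjusted p = 0.0300), in 1 of 4 probe sets, a call lost without GFP-negative array 1 or 2 or GFP-positive array 1 or 2 (adjusted p from 0.0780 to 0.0927). The iron-binding proteins Ltf and Lcn2, which neutrophils make, varied within groups, at 4.97 ± 0.65 and 6.14 ± 1.21 for Ltf and at 8.03 ± 0.33 and 8.45 ± 1.09 for Lcn2, and neither was called (adjusted p = 0.258 and 0.621). The late neutrophil markers as a list had summed log2 signals of 9.42 to 11.03 in the GFP-negative group and 10.82 to 12.46 in the GFP-positive group. By limma 1 of 6 was lower and 0 higher, against 9.92% and 8.15% of all genes (1 and 0 of the 6 at an unadjusted p under 0.05). The lower gene, the chemokine receptor Cxcr2, lost its call without GFP-negative array 3 or GFP-positive array 1 or 3 (adjusted p = 0.0594, 0.0604 and 0.0650) and without both arrays with Jchain signal (adjusted p = 0.134).

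Of 4 genes of storage and ferritin turnover, 1 was lower and 0 higher by limma (1 and 0 at an unadjusted p under 0.05). The shares over all genes were 9.92% and 8.15%. The iron chaperones Pcbp1 and Pcbp2 had log2 changes of 0.085 and 0.0049 (adjusted p = 0.523 and 0.975). Ncoa4, the receptor that delivers ferritin to the lysosome, named after its values were seen, read 12.45 ± 0.11 in the GFP-negative group and 11.99 ± 0.06 in the GFP-positive group (adjusted p = 0.0297). The Ncoa4 call held when GFP-negative array 1 was dropped, but with any other array dropped it did not (adjusted p up to 0.105). None of 3 genes for turnover of the iron regulatory proteins was called, at either the adjusted or the unadjusted threshold. Skp1 and Cul1, parts of the ubiquitin ligase that degrades them, had log2 changes of 0.023 and 0.044 (adjusted p = 0.878 and 0.748). Of the 3 export oxidases none was called by limma, 1 was higher at an unadjusted p under 0.05, and Hephl1 and Cp were dim, at 4.77 and 5.13 and at 4.58 and 4.82.

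In heme handling, 1 of 8 genes was higher and 2 lower, where 8.15% and 9.92% of all genes were called. Blvrb, a biliverdin reductase abundant in erythroid cells, was 2.05-fold higher (12.37 ± 0.12 to 13.41 ± 0.07; adjusted p = 0.00213). Hmox2, the constitutive heme oxygenase, was 1.40-fold lower (adjusted p = 0.0371, and up to 0.111 with 1 array left out, held only on dropping GFP-positive array 1). Cd163, the hemoglobin scavenger receptor, was 1.97-fold lower (adjusted p = 0.0228, and up to 0.0765 with 1 array left out, held only on dropping GFP-positive array 2). Of 7 genes of the hepcidin axis, 1 was higher and 0 lower by limma (3 and 0 at an unadjusted p under 0.05). The 1 was Neo1, a hemojuvelin receptor named after its values were seen, with a log2 change of 0.68 in 1 of 5 probe sets, a call lost without GFP-negative array 1 or 2 or GFP-positive array 2 or 3 (adjusted p up to 0.0792). Tmprss6, a protease that restrains hepcidin, lay at 5.56 ± 0.10 and 6.12 ± 0.41 (adjusted p = 0.130).

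Heme synthesis, the main use of iron in erythroid cells, had 9 of 11 measured genes higher and 1 lower, with a median log2 change of 0.81. Among all genes, 8.15% were called higher and 9.92% lower. The mitochondrial carrier Slc25a38, the porphyrin transporter Abcb6 and the oxidase Ppox rose 2.91-fold, 2.58-fold and 2.40-fold (adjusted p = 0.00183, 0.00387 and 0.00317; 0.0503 for Abcb6 without both arrays with Jchain signal), and limma called 1 of 3 probe sets of Ppox. Alas1 was 2.47-fold lower (adjusted p = 0.00404). Of the 9 higher calls, 6 were kept whichever array was left out, and of all 10 calls, 6 without both arrays with Jchain signal. Alas2 was not called, as given above.

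**Figure D4:**
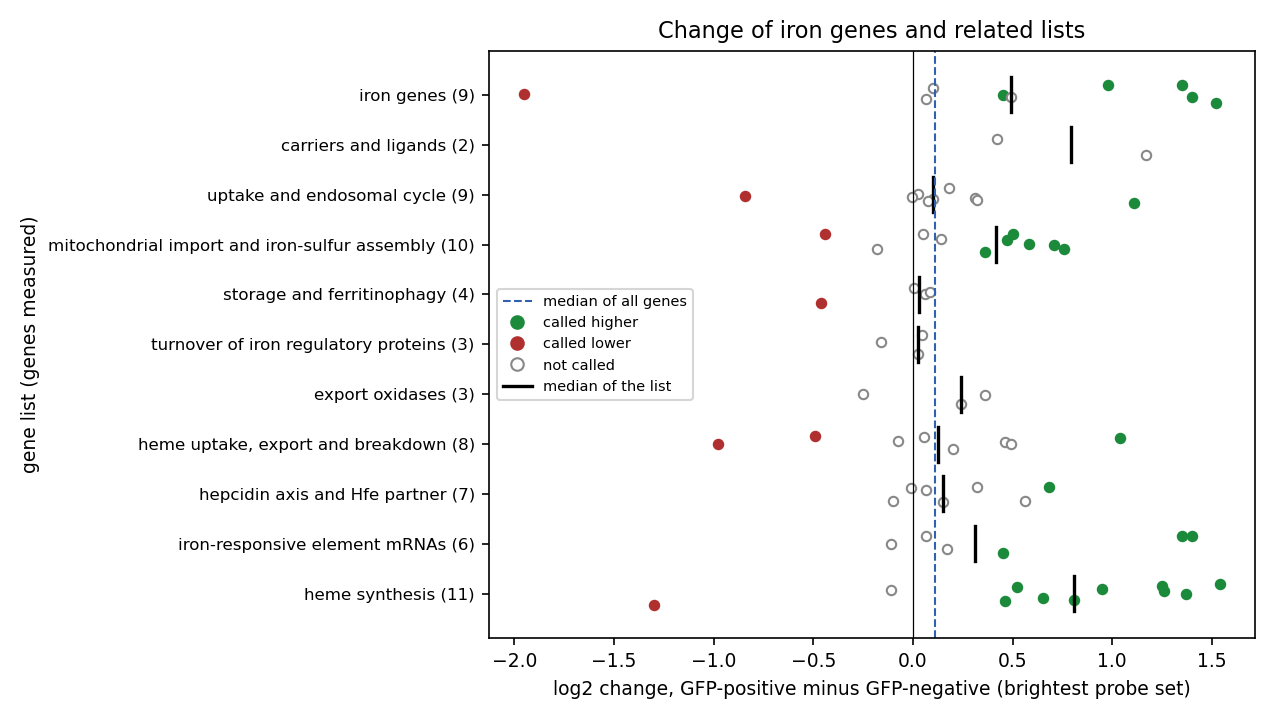
Log2 change of the brightest probe set of each gene (GFP-positive minus GFP-negative, horizontal axis) for the 9 iron genes and the related lists, green where called higher, red where called lower and open grey where not called, with a black bar at each list's median and a dashed line at the median of all genes (0.11). The list medians are 0.49 for the 9 iron genes, 0.42 for mitochondrial import and iron-sulfur assembly and 0.81 for heme synthesis. They are 0.31 for iron-responsive element mRNAs and 0.79 for carriers and ligands, a list of 2 measured genes with 0 called. Partner lists other than mitochondrial import and iron-sulfur assembly hold at most 1 higher call each.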

How the data were processed

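Affymetrix arrays of 3 GFP-positive and 3 GFP-negative samples were analysed. The authors deposited 1 linear intensity per probe set (4.27 to 24551), from RMA per the submitters' processing notes, with version and settings not given in the sources used here. Their log2 was analysed as it stood. The table has 45101 rows, and 45040 were tested after removal of 61 array controls, with limma 3.58.1 in R 4.3.3 (lmFit, eBayes, no covariate, 2-sided), with Benjamini-Hochberg adjustment over all of them and a threshold of 0.05. Names follow GEO's platform annotation, updated by gene ID through the RefSeq table. Probe sets with 1 gene numbered 34948, with several 932 and with none 9160. A gene outside the set was represented by its brightest probe set.

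The members and gene lists were chosen with earlier results of these data known. All members are named. Of each partner list and of the heme list up to 4 called genes with the largest change are named, or the 2 brightest where fewer than 2 were called. The partner lists named 53 genes, of which 46 had a probe set of their own. The B and plasma cell list had 2 of 5 genes lower and 0 higher by limma, and the T and NK cell list 1 of 5 lower and 0 higher. Over all genes, 9.92% were called lower and 8.15% higher. At an unadjusted limma p under 0.05, 2 genes were higher in the B and plasma cell list and 1 in the T and NK cell list. The T and NK call, of Nkg7, was lost without GFP-negative array 2 or 3 (adjusted p = 0.0512 and 0.0522) and without both arrays with Jchain signal (adjusted p = 0.0781). On simulated data with 200 changed probe sets among 45040, limma recovered 0.995%, 38.3% and 84.3% of log2 changes of 0.5, 1 and 2 in the GFP-positive against GFP-negative comparison. In the data 6317 probe sets were called, far more than were changed in the simulation. The adjustment is stricter with fewer changes, so these shares do not give the recovery in the data. Motifs were searched with Python 3.11.15. Alternatives were a replicate block, an intensity trend with a robust prior, quantile normalization, array medians subtracted, only probe sets brighter than the median, other probe sets per gene and arrays left out.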

Additional observations from a re-analysis of the deposited data

How the results depend on the processing

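Of the 18 called iron probe sets, 16 kept their call whichever array was left out, and 15 kept it without both arrays with Jchain signal. The exceptions are given beside Tfrc, Tfr2 and Slc11a2 above. No called iron probe set changed direction with array medians subtracted, with quantile normalization or with arrays left out. The intensity trend, the block and the restriction to brighter probe sets do not alter the change itself, and the last left out Slc11a2 set 1441709_at and both other dim iron sets. With 1 array left out, 15 to 18 iron probe sets were higher and 1 lower. Aco1 set 1423644_at was called with array medians subtracted (log2 change 0.57; adjusted p = 0.0358), with an intensity trend (adjusted p = 0.0319) and among probe sets brighter than the median (adjusted p = 0.0331). The uncalled Aco1 set 1447080_at ran from -0.018, reversed, without GFP-negative array 2 to 0.094; the cause was not tested. With array medians subtracted, 5249 of all probe sets and 14 partner genes were higher, against 2864 and 9, and 61.7% of all calls were higher, against 45.3%. Without both arrays with Jchain signal, 687 of all probe sets were higher and 1655 lower, and 2 partner genes higher and 0 lower. With 1 array left out, 1218 to 2246 probe sets were higher and 2197 to 3098 lower, and 4 to 8 partner genes higher and 0 to 2 lower. The 3′ minus 5′ gap of Tfrc between groups, -0.86, ran from -1.16 to -0.56 with 1 array left out. Fewer arrays were fitted in these settings.

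The labels do not say whether the replicate numbers pair the samples. Deviations of same-numbered arrays from their group means correlated at 0.023, 0.0547 and 0.0191, and every array correlated best with its own number. Correlations this small cannot decide whether the samples are paired. With the replicate number as a block, 16 iron probe sets were higher and 1 lower, and 1972 and 2872 of all probe sets. Tfrc set 1452661_at (adjusted p = 0.0514) and Slc11a2 set 1441709_at (adjusted p = 0.107) were not called, and Aco1 set 1456728_x_at was (adjusted p = 0.0447). Partner genes called lower numbered 0 with the block, with 5 at an unadjusted limma p under 0.05, and higher 7, with 16. Dim probe sets near the low end of the signal, such as those of Hephl1, Cp, Epas1 and Neo1, limit what a fold can show.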
